A study of Mus musculus with 12 samples.

Results

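The gene expression response of *Srsf3*-knockdown cells to 1 hr of PDGF-AA ligand was examined by comparing the 3 shSrsf3 samples that received ligand with the 3 shSrsf3 samples that did not, 6 of the 12 samples of the study. Every gene that passed a filter for low counts entered the comparison, 15037 of the 51490 genes in the table, and changes of any size and in both directions were retained. The cells were immortalized mouse embryonic palatal mesenchyme (iMEPM) cells, a *Cdkn2a*-/- line derived from a male embryo, at passages 9 to 20. They had been transduced with an shRNA against the 3' UTR of *Srsf3* (shSrsf3) or with a scramble shRNA (scramble), kept in puromycin for 10 days and sorted for GFP, so that each line is a single sorted population and its 3 replicates are repeated cultures of it. Poly(A) transcripts were sequenced from 3 samples of each line without ligand (-PDGF-AA) and from 3 to which the ligand had been added for 1 hr at 10 ng/mL (+PDGF-AA). The cells were not freshly isolated palatal mesenchyme, and because each shRNA is represented by 1 line, the knockdown and other differences between the lines cannot be told apart. Levels are given below as CPM, the count of a gene scaled to a common library size.

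PDGF-AA is a dimeric growth factor that binds the receptor tyrosine kinase PDGFRα, a receptor required in the cranial neural crest cells that form the palatal mesenchyme. The active receptor engages Ras and the ERK kinases, which switch on immediate early genes without new protein synthesis, and PI3K and Akt, which keep FoxO transcription factors out of the nucleus and thereby lower transcription of FoxO target genes. Akt also phosphorylates SR proteins, the family of splicing factors to which Srsf3 belongs.

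The total expected count was 37070136 to 76123359 in shSrsf3 -PDGF-AA samples and 30958966 to 37334733 in shSrsf3 +PDGF-AA samples. The deepest were -PDGF-AA replicates 1 and 2, whereas -PDGF-AA replicate 3, at 37070136, lay within the range of the stimulated samples. *Srsf3*, the targeted gene, was at 162, 164 and 161 CPM without and 164, 161 and 170 CPM with ligand in shSrsf3 cells, below all scramble samples (199 to 231 CPM), and its log2 fold change upon stimulation was 0.02 ± 0.0381 (SE). *Pdgfra*, the receptor gene, was at 44.3 to 53.5 CPM in the 6 samples. *Cdkn2a*, which is deleted in the parent embryo, was still listed at 2.99 to 3.51 CPM. Of 25 mesenchyme markers 22 passed the filter and their summed level was 44400 to 47900 CPM without and 44300 to 47900 CPM with ligand, but *Tbx22*, a gene of the palatal shelves, had no count in these samples. Summed levels of epithelial, endothelial, blood cell, skeletal muscle and neural markers were each at most 31.2 CPM. In a principal component analysis of the 6 samples, the first component (27.4% of the variance) set +PDGF-AA replicate 3 apart from the other 5 samples and did not separate the conditions, whereas on the second (24.2%) the 3 unstimulated samples lay on one side of the 3 stimulated ones.

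PDGF-AA changed the expression of 85 genes in shSrsf3 cells (0.565% of 15037; edgeR's quasi-likelihood test, adjusted p of 0.05 or less). Of these, 64 rose (0.426%) and 21 fell (0.14%). The changes were small. Only 6 genes reached 2-fold (0.0399%), the immediate early genes *Egr1*, *Egr3*, *Fosb* and *Klf10* and the secreted factors *Areg* and *Cxcl1*, and all 6 rose. The other 79 changed by less than 2-fold, and 65 of the 85, 45 higher and 20 lower, changed by less than 1.5-fold. The log2 fold change of the genes that rose was between 0.17 and 1.73 with a median of 0.38, and that of the genes that fell was between -0.18 and -0.74 with a median of -0.32, while the median of all genes was -0.0044. Stimulated and unstimulated samples were fully separated for each of the 85, as they were for 2708 of all tested genes (18%). Of all tested genes, 1420 had an unadjusted p under 0.05.

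**Figure D1:**
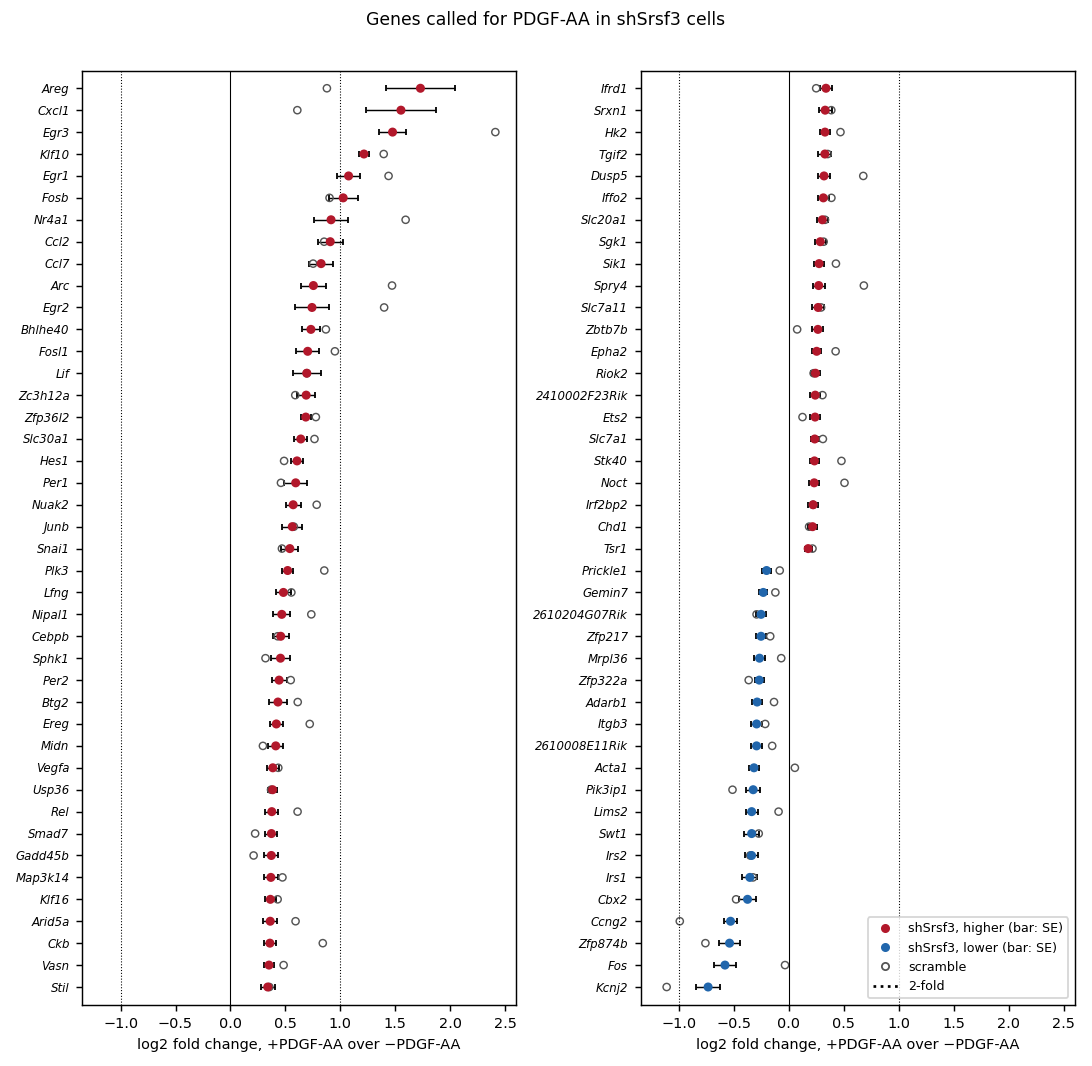
Log2 fold change (x axis) of 84 of the 85 genes called for PDGF-AA in shSrsf3 cells, ranked from *Areg* at the top of the left panel to *Kcnj2* at the bottom of the right panel. Filled points with bars are shSrsf3 cells with the SE, open circles are scramble cells, and dotted lines mark 2-fold. The 6 genes past 2-fold are all higher with ligand.

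The gene list with the most calls was that of immediate early genes, which holds EGR, AP-1 and other transcription factors and also effectors such as *Arc*, *Plk3*, *Sgk1* and *Zfp36l2*. It was chosen, like the other lists, with earlier results of these data known, so that its number of calls is a description. Of its 61 genes, all tested, 20 rose and 1 fell, with a median log2 fold change of 0.23. The calls were 34.4% of the list, against 0.565% of all tested genes. A positive value was found for 50 of the 61, against 48.2% of all tested genes. Their summed level was 5370 to 5670 CPM without and 6770 to 7050 CPM with ligand. *Klf10*, a zinc finger repressor first described as a TGFβ-inducible early gene, had the lowest p. It was at 42.8, 48.8 and 47.3 CPM without and 105, 108 and 109 CPM with ligand (log2 fold change 1.22 ± 0.0488 SE, 2.32-fold, adjusted p = 2.02e-08, edgeR's quasi-likelihood test). *Egr3* was at 10.8, 13.9 and 15.4 CPM without and 36.7, 39.2 and 33.8 CPM with ligand (1.48 ± 0.126, 2.78-fold, adjusted p = 0.000106, edgeR). *Egr1* was at 49.9, 51.8 and 58.6 CPM without and 115, 120 and 103 CPM with ligand (1.08 ± 0.108, 2.11-fold, adjusted p = 0.000284, edgeR). *Egr1* and *Egr3* encode zinc finger activators of one family, and in both the lowest stimulated sample lay well above the highest unstimulated one.

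The third EGR gene that passed the test, *Egr2*, had a smaller and more variable increase, from 20.4, 24.6 and 30.6 CPM to 45.9, 41.6 and 37.4 CPM (0.74 ± 0.151, adjusted p = 0.0464, edgeR). The fourth, *Egr4*, was not called (0.56, adjusted p = 0.256, edgeR). Among AP-1 subunits, *Fosb* rose from 9.23, 10.0 and 12.3 CPM to 21.1, 21.9 and 20.6 CPM (1.03 ± 0.131, 2.04-fold, adjusted p = 0.00248, edgeR), and *Fosl1* from 71.7, 76.7 and 77.6 CPM to 109, 117 and 142 CPM (0.70 ± 0.103, adjusted p = 0.0061, edgeR). *Junb* rose by 0.56, whereas *Fosl2* (0.24, adjusted p = 0.0551, edgeR), *Jun* (0.11) and *Jund* (0.01) were not called. *Fos* itself fell, from 13.6, 14.1 and 15.2 CPM to 10.8, 9.97 and 7.66 CPM (-0.58 ± 0.0968, adjusted p = 0.0128, edgeR). At 1 hr, therefore, the genes of the AP-1 family did not move in one direction.

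*Nr4a1*, an orphan nuclear receptor, rose from 303, 351 and 396 CPM to 664, 673 and 644 CPM (0.92 ± 0.152, adjusted p = 0.0128, edgeR). *Zfp36l2*, a zinc finger protein that binds AU-rich elements of mRNAs and promotes their decay, rose from 346, 362 and 356 CPM to 541, 554 and 616 CPM (0.69 ± 0.0465, adjusted p = 8.84e-06, edgeR). *Arc*, a regulator of the neuronal cytoskeleton that is induced in many cells by serum and growth factors, rose by 0.75, and *Bhlhe40*, a basic helix-loop-helix repressor, by 0.73. The remaining list members that rose were *Btg2*, *Cebpb*, *Ets2*, *Gadd45b*, *Hes1*, *Per1*, *Plk3*, *Sgk1* and *Snai1*, with log2 fold changes from 0.24 for *Ets2* to 0.61 for *Hes1*. *Klf4*, *Klf6* and *Plk2*, abundant list members that were not called, had log2 fold changes of 0.12, -0.06 and 0.08.

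**Figure D2:**
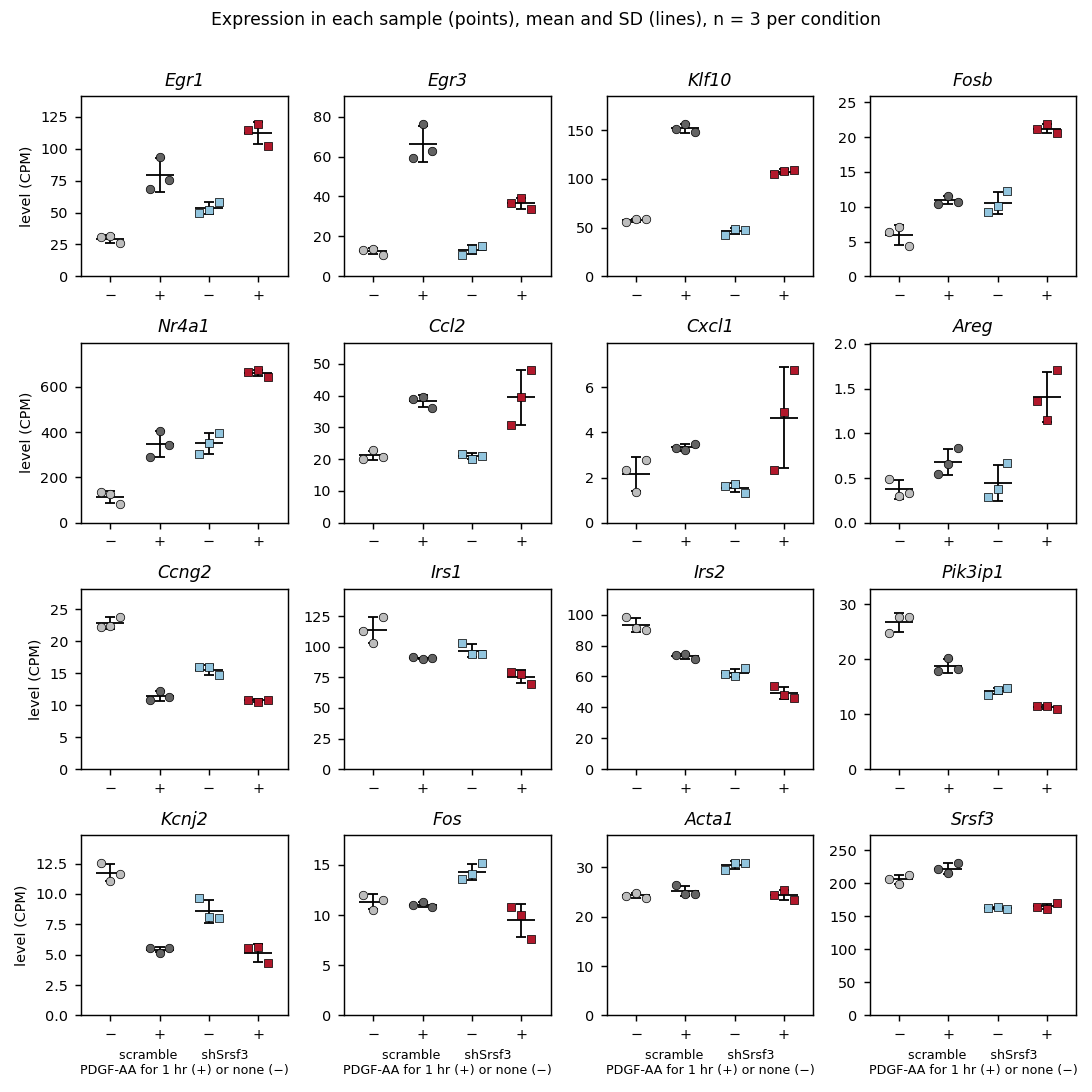
Level in CPM (y axis, starting at 0) of 15 called genes and of *Srsf3* in each of the 12 samples (points), with the mean and SD of the 3 samples of a condition (lines). The upper 2 rows hold genes that rose in shSrsf3 cells, and the lower 2 rows genes that fell, with *Srsf3* last. *Klf10* is at 105 to 109 CPM in the stimulated and at 42.8 to 48.8 CPM in the unstimulated shSrsf3 samples, and *Cxcl1* is at 2.33 to 6.76 CPM with ligand.

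The promoters of several of these genes hold CArG boxes, the 10-base sites bound by serum response factor (SRF), through which ERK signaling acts on immediate early genes. The 500 bases before the annotated start of each gene were read from GRCm39 (GENCODE M39) and searched on both strands. A CArG box occurred in 5 of the 61 risen genes with a promoter sequence (8.2%; *Areg*, *Dusp5*, *Egr2*, *Egr3* and *Fosb*), in 3 of the 19 fallen genes (15.8%; *Acta1*, *Fos* and *Prickle1*) and in 2.58% of the promoters of all 12528 tested genes with a sequence. The windows of 30 bases below are shown because they hold the CArG boxes (capitals) nearest to the start sites of *Egr2*, *Egr3*, *Fosb*, *Fos* and *Dusp5*, and that of *Acta1*. They lie at chr14:70314288-70314317 (+, 58 bases before the start) for *Egr3*, chr10:67373623-67373652 (+, 65 bases) for *Egr2*, chr7:19044217-19044246 (-, 266 bases) for *Fosb*, chr19:53517500-53517529 (+, 28 bases) for *Dusp5*, chr12:85520351-85520380 (+, 303 bases) for *Fos* and chr8:124621884-124621913 (-, 223 bases) for *Acta1*, each before the start of the gene's canonical transcript. The distances in parentheses are those of the first base of the CArG box and not of the window. The windows of *Egr2* and *Acta1* lie within the annotated span of the gene, since other transcripts of these genes start further upstream. The promoter of *Egr1* was not searched.
Egr3: ctgtCCATATATGGgcagctacgtcacgga
Egr2: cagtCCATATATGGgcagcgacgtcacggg
Fosb: agctCCTTATATGGctaattgcgtcacagg
Dusp5: ttggCCTTATATGGgcactcacgtcacagg
Fos: atgtCCATATTAGGacatctgcgtcagcag
Acta1: gaacCCATAAATGGggtgcattgtggcagg

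In 5 of these 6 windows the letters CGTCA, one side of the palindromic cAMP response element (CRE), follow the CArG box. This was noticed after the windows were read. The CArG boxes of *Areg* and *Prickle1*, whose windows are not printed, had no CGTCA on either strand within 20 bases. Across all genes, a CArG box with CGTCA on either strand within 20 bases was present in 16 promoters (0.128%). Of these, 4 were of genes that rose (*Dusp5*, *Egr2*, *Egr3* and *Fosb*, 6.56% of the risen genes with a sequence). The promoter of *Fos* was the 1 of a gene that fell (5.26% of the fallen genes with a sequence). The same arrangement therefore preceded genes that moved in opposite directions at 1 hr. Whether these sites were bound in the cells was not measured.

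Secreted growth factors and chemokines were the second group with increases. Of 43 tested genes of this list, 7 rose and none fell, with a median log2 fold change of 0.07, against -0.0044 for all tested genes. The calls were 16.3% of the tested list members, against 0.565% of all tested genes. *Ccl2* and *Ccl7*, neighbouring genes for monocyte-attracting chemokines on chromosome 11, moved alike. *Ccl2* was at 21.8, 20.1 and 21.1 CPM without and 30.8, 39.7 and 48.0 CPM with ligand (0.91 ± 0.114, adjusted p = 0.00228, edgeR), and *Ccl7* was at 9.06, 9.81 and 10.6 CPM without and 14.3, 16.7 and 21.1 CPM with ligand (0.82 ± 0.108, adjusted p = 0.00284, edgeR). *Cxcl1*, a neutrophil-attracting chemokine, was at 1.65, 1.70 and 1.32 CPM without and 2.33, 4.89 and 6.76 CPM with ligand (1.55 ± 0.316, 2.93-fold, adjusted p = 0.0467, edgeR). In all 3 chemokine genes +PDGF-AA replicate 3, the sample that stood apart in the principal component analysis, was the highest. Without it, the log2 fold changes of *Ccl2*, *Ccl7* and *Cxcl1* were 0.75, 0.67 and 1.19, and *Cxcl1* was no longer called (adjusted p = 0.201, edgeR).

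Of the ligands of the EGF receptor in the list, *Ereg* and *Areg* rose, with very different levels. *Ereg* was at 61.7, 65.3 and 67.2 CPM without and 83.4, 82.3 and 93.5 CPM with ligand (0.42 ± 0.0603, adjusted p = 0.0061, edgeR). *Areg* was at 0.285, 0.380 and 0.671 CPM without and 1.36, 1.15 and 1.71 CPM with ligand (1.73 ± 0.315, 3.32-fold, adjusted p = 0.022, edgeR). *Areg* had the largest fold change and also the lowest mean count, 35.5, of the 85 genes. The further EGF receptor ligands *Hbegf* (0.39, adjusted p = 0.095, edgeR), *Btc* (-0.19) and *Tgfa* (-0.12) were not called. The cytokine *Lif* rose by 0.69 and the angiogenic factor *Vegfa* by 0.39, while *Il6* (-0.07) was not called. At an unadjusted p under 0.05, 64 uncalled genes had at least a 2-fold change, and 58 of these had a mean count under 50.

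A complete CRE, TGACGTCA, was found in the promoters of 6 of 61 risen genes (9.84%), *Areg*, *Btg2*, *Epha2*, *Noct*, *Rel* and *Sik1*, of 1 of 19 fallen genes (5.26%), *Zfp874b*, and in 2.47% of all promoters. The windows of 30 bases around it (capitals) are given for the gene with the largest fold change, for *Rel*, an NF-κB subunit, and for *Sik1*, a kinase known as a target of the CRE-binding protein CREB. They lie at chr5:91287386-91287415 (+, 54 bases before the start), chr11:23721295-23721324 (-, 49 bases) and chr17:32074999-32075028 (-, 199 bases). The distances are those of the first base of the CRE and not of the window.
Areg: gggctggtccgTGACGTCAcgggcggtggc
Rel: ctcggccagcaTGACGTCAcgaacacgccc
Sik1: agccgggccccTGACGTCAccgcccgcggt

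Other sequence motifs were searched in the same windows. The EGR site GCGNGGGCG was present in 11 of the risen genes (18%), 1 of the fallen genes (5.26%) and 7.69% of all genes. The AP-1 site TGANTCA was present in 6 risen genes (9.84%), a share near the 9.87% of all genes, and in 3 fallen genes (15.8%). The FoxO site TGTTTAC was present in 4 risen (6.56%) and 2 fallen genes (10.5%), against 5.27% of all genes. Risen genes also had promoters of higher GC content (median 60.0%) than all genes (52.6%) or fallen genes (54.8%), and GC-rich motifs such as the EGR site are more frequent in such promoters. These shares describe the windows and were not tested.

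The list for feedback on the ERK pathway, which also holds the cytokine *Lif*, had 3 calls. Of 27 tested genes of the list for ERK feedback, 3 rose and none fell, with a median log2 fold change of 0.04. The calls made up 11.1% of the tested list members, against 0.565% of all tested genes. They were *Dusp5*, *Spry4* and the cytokine *Lif*, which is also in the list of ligands. *Dusp5*, a nuclear phosphatase of ERK, was at 50.7, 55.8 and 59.8 CPM without and 71.1, 67.5 and 68.6 CPM with ligand (0.32 ± 0.0535, adjusted p = 0.0131, edgeR). *Spry4*, an inhibitor of receptor tyrosine kinase signaling, was at 16.3, 17.9 and 17.1 CPM without and 19.3, 22.1 and 20.6 CPM with ligand (0.27 ± 0.0551, adjusted p = 0.0467, edgeR). *Dusp4* missed the threshold narrowly (0.35, adjusted p = 0.0513, edgeR), *Dusp6* had a log2 fold change of 0.13, and *Dusp1* had a negative value (-0.35, adjusted p = 0.3, edgeR).

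Further risen genes, some of them also members of the lists, are described in groups that were formed after their values were seen. *Zc3h12a*, the endoribonuclease Regnase-1 that degrades inflammatory mRNAs, rose from 7.12, 7.82 and 7.62 CPM to 11.3, 12.8 and 12.4 CPM (0.69 ± 0.0818, adjusted p = 0.00142, edgeR). The protein kinases *Nuak2*, *Sik1*, *Stk40* and *Map3k14* rose by 0.57, 0.27, 0.23 and 0.37, and *Sphk1*, a lipid kinase that produces sphingosine 1-phosphate, by 0.46. The clock genes *Per1* and *Per2* rose by 0.59 and 0.44, and *Noct*, a phosphatase of rhythmic expression, by 0.23. *Noct* shares 38.5% of its 31-base sequences with transcripts of other genes, so that its count is uncertain.

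Solute transporters formed another such group. *Slc30a1*, the zinc exporter of the plasma membrane, rose from 16.8, 19.6 and 19.1 CPM to 28.9, 29.3 and 28.0 CPM (0.64 ± 0.058, adjusted p = 0.000107, edgeR). *Slc20a1*, a phosphate transporter, *Slc7a11*, a cystine transporter, and *Slc7a1*, a transporter of cationic amino acids, rose by 0.30, 0.26 and 0.23, and *Hk2*, the hexokinase of the first step of glycolysis, by 0.33. The Notch target *Hes1* was at 35.1, 36.9 and 33.4 CPM without and 55.7, 54.3 and 50.5 CPM with ligand (0.61 ± 0.053, adjusted p = 0.000106, edgeR), and *Lfng*, a glycosyltransferase that modifies Notch, rose by 0.48. *Smad7*, an inhibitor of TGFβ receptors, *Vasn*, a TGFβ-binding protein, and *Tgif2*, a corepressor of Smad proteins, rose by 0.37, 0.35 and 0.33. The remaining risen genes were *Rel* (0.38), the receptor tyrosine kinase gene *Epha2* (0.25), the deubiquitinase gene *Usp36* (0.38), the creatine kinase gene *Ckb* (0.36), the chromatin remodeler gene *Chd1* (0.21), and *2410002F23Rik*, *Arid5a*, *Iffo2*, *Ifrd1*, *Irf2bp2*, *Klf16*, *Midn*, *Nipal1*, *Riok2*, *Srxn1*, *Stil* and *Zbtb7b*, with log2 fold changes from 0.22 for *Irf2bp2* to 0.47 for *Nipal1*. The smallest increase that passed the test was that of *Tsr1*, a ribosome assembly factor, with 80.1, 79.3 and 78.8 CPM without and 89.2, 88.7 and 91.1 CPM with ligand (0.17 ± 0.033, 1.13-fold, adjusted p = 0.0288, edgeR).

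The 21 genes that fell included genes known to be repressed by PI3K signaling. Of 37 tested FoxO factors and PI3K-repressed genes, 4 fell and 1 (*Per1*, which is also an immediate early gene) rose, with a median log2 fold change of -0.06. The calls were 13.5% of the tested list members, against 0.565% of all tested genes. *Ccng2*, a cyclin that is associated with cell cycle arrest and is a FoxO target, fell from 15.9, 15.9 and 14.7 CPM to 10.9, 10.5 and 10.9 CPM (-0.53 ± 0.06, adjusted p = 0.000864, edgeR). *Irs1* and *Irs2* encode the adaptors that link insulin and IGF receptors to PI3K. *Irs1* fell from 103, 94.0 and 93.8 CPM to 79.5, 78.1 and 69.7 CPM (-0.36 ± 0.0674, adjusted p = 0.0288, edgeR) and *Irs2* from 61.3, 60.4 and 65.4 CPM to 53.8, 47.7 and 46.0 CPM (-0.34 ± 0.0586, adjusted p = 0.0152, edgeR). *Pik3ip1*, an inhibitor of the catalytic subunit of PI3K, fell from 13.5, 14.4 and 14.7 CPM to 11.5, 11.4 and 10.98 CPM (-0.33 ± 0.0658, adjusted p = 0.0459, edgeR). The decreases were thus by less than 1.5-fold in each of the 4 genes. *Ccng2* was called in all 6 fits that left out a sample, *Irs2* in only 1, and *Irs1* and *Pik3ip1* in none. *Ypel2* (-0.44, adjusted p = 0.0565, edgeR), *Foxo3* (-0.21) and *Txnip* (-0.21) were not called.

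The largest decrease was that of *Kcnj2*, which encodes the inward rectifier potassium channel Kir2.1 that is required for craniofacial development, from 9.66, 8.08 and 8 CPM to 5.56, 5.64 and 4.28 CPM (-0.74 ± 0.107, 0.600-fold, adjusted p = 0.0061, edgeR). *Zfp874b* fell by 0.54 on the log2 scale, but 22.9% of its 31-base sequences occur in transcripts of other genes. *Acta1*, the skeletal muscle α-actin, fell from 29.5, 30.9 and 30.9 CPM to 24.4, 25.4 and 23.3 CPM (-0.32 ± 0.044, adjusted p = 0.00418, edgeR). The summed level of 9 skeletal muscle markers, most of it *Acta1*, was 30 to 31.2 CPM without and 23.9 to 25.8 CPM with ligand, and the defining markers *Ckm*, *Myod1*, *Myog* and *Pax7* were at 0 in all 6 samples. The other fallen genes with a role that is well known were *Cbx2*, a Polycomb protein (-0.38), *Lims2*, an adaptor of focal adhesions (-0.34), *Itgb3*, integrin β3 (-0.29), *Adarb1*, an RNA editing enzyme (-0.29), *Mrpl36*, a protein of the mitochondrial ribosome (-0.27), *Gemin7*, a subunit of the SMN complex (-0.23), and *Prickle1*, a planar cell polarity protein (-0.20). Also lower were *2610008E11Rik* (-0.30), *Swt1* (-0.34), *Zfp217* (-0.25), *Zfp322a* (-0.27) and the non-coding *2610204G07Rik* (-0.25).

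Further gene lists held no called gene. None of 46 PDGF ligands, receptors and proximal PI3K components, 36 SRF and actin cytoskeleton genes, 22 SR splicing factors, 34 interferon-stimulated genes, 46 cell cycle genes or 34 genes of cholesterol and fatty acid synthesis passed the test, with median log2 fold changes of -0.02, -0.03, 0.03, -0.13, 0.07 and 0.06. With 0.565% of all genes called, lists of this size would hold few or no calls at the overall share. At an unadjusted p under 0.05, *Pdgfra* (-0.14) and *Tagln* (-0.11) were among the members with a difference. *Ccnd1*, cyclin D1, had a log2 fold change of 0.07 and *Myc* of 0.08. Among 30 Atf4 target genes *Cebpb* and *Slc7a11* rose, and among 30 p53 target genes *Btg2* and *Plk3*, with medians of 0.04 in both lists. Transcripts of the mitochondrial genome moved with the condition without a call, with a positive log2 fold change in 15 of 15 (median 0.22), no overlap in 10 (against 18% of all tested genes) and a summed level of 27500 to 29600 CPM without and 30100 to 34300 CPM with ligand. In scramble cells the median of these transcripts was -0.0028. Their part in the other results was not tested.

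**Figure D3:**
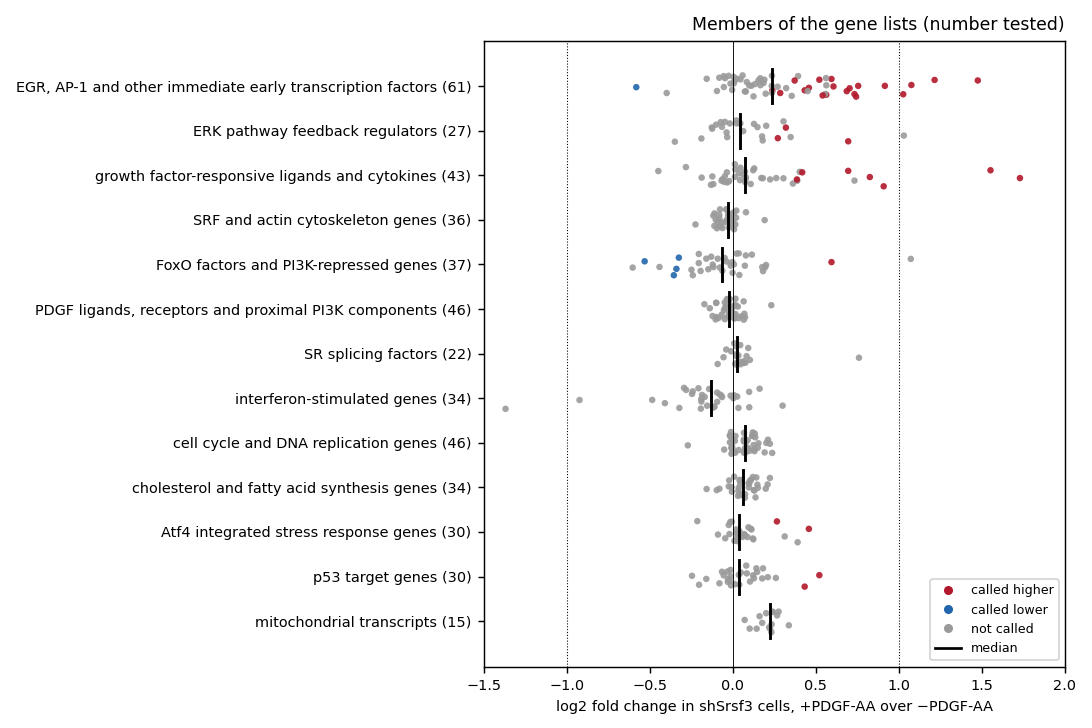
Log2 fold change in shSrsf3 cells (x axis) of the tested members of 13 gene lists, with the number tested in parentheses. Red and blue points passed the test, grey points did not, vertical bars are medians and dotted lines mark 2-fold. Calls are most numerous in the immediate early list (20 higher, 1 lower), and the 15 mitochondrial transcripts are all above 0 without a call. The lists were chosen with earlier results of these data known.

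Scramble cells provided a separate set of 6 samples for the same ligand treatment. The signs of the fold changes therefore come from different samples in each line. Both lines were fitted in the same model with a shared spread, so that their p-values and calls are not independent of each other. There, 301 genes rose (2.0%) and 307 fell (2.04%; edgeR's quasi-likelihood test, adjusted p of 0.05 or less). All 64 genes that rose in shSrsf3 cells had a positive log2 fold change in scramble cells, against 46.5% of all genes, 62 had an unadjusted p under 0.05 (8.14% of all genes were higher at this p) and 59 were called. The genes not called in scramble cells were *Areg*, *Cxcl1*, *Ets2*, *Gadd45b* and *Zbtb7b*. Of the 21 genes that fell, 20 had a negative value in scramble cells, against 53.4% of all genes, 17 had an unadjusted p under 0.05 and 13 were called. *Acta1* was the exception in sign, with 24.1, 24.9 and 23.8 CPM without and 26.3, 24.6 and 24.6 CPM with ligand in scramble cells (0.05). Across the 85 genes the log2 fold changes of both lines had a Spearman's rho of 0.896, a value that describes genes chosen for a change and not independent replicates. Over all tested genes, rho was 0.268 and Pearson's r was -0.102, and over the 6923 genes with a mean count of at least 1000, rho was 0.434.

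The sizes of the responses were compared by the interaction, the difference between the log2 fold changes of the lines. Of the 64 risen genes, 43 had the larger log2 fold change in scramble cells, where their median was 0.49 against 0.38 in shSrsf3 cells. *Egr3* reached 59.4, 76.4 and 63.0 CPM in stimulated scramble cells from 13.2, 13.5 and 10.9 CPM (2.41), and *Nr4a1* reached 292, 405 and 344 CPM from 134, 128 and 83.8 CPM (1.59). The interaction was -0.94 ± 0.19 for *Egr3* (unadjusted p = 0.000131, adjusted p = 0.174, edgeR's quasi-likelihood test) and -0.68 for *Nr4a1* (unadjusted p = 0.00712, edgeR). For *Nr4a1* the unstimulated shSrsf3 samples were above all unstimulated scramble samples, and the stimulated ones above all stimulated scramble samples. The same order was seen for *Egr1*, which was at 30.6, 31.6 and 25.8 CPM without and 68.5, 93.9 and 75.7 CPM with ligand in scramble cells, and for *Fosb* (6.34, 7.06 and 4.36 CPM without and 10.5, 11.6 and 10.7 CPM with ligand). A smaller fold change in shSrsf3 cells thus did not mean a lower level after stimulation in *Egr1* or *Nr4a1*, whereas the stimulated level of *Egr3* was lower in shSrsf3 cells. *Ckb* (interaction -0.48, unadjusted p = 7.68e-05, edgeR), *Plk3* (unadjusted p = 0.000236, edgeR), *Spry4* (-0.41, unadjusted p = 0.000138, edgeR) and *Dusp5* (-0.36, unadjusted p = 0.000419, edgeR) also had larger increases in scramble cells. The interaction had an unadjusted p under 0.05 for 21 of the 64 genes, with a smaller response in shSrsf3 cells for 20 of them, among all genes for 5.54%. After adjustment over all genes it held for none of the 85, the lowest adjusted p being 0.137 (edgeR), and for 2 genes in all (0.0133%), neither of which was called in shSrsf3 cells.

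Among the genes that fell, 9 had an interaction at an unadjusted p under 0.05, with a larger decrease in shSrsf3 cells for 7 and a smaller one for 2. The 2 were *Ccng2*, which fell in scramble cells from 22.3, 22.4 and 23.9 CPM to 10.8, 12.3 and 11.4 CPM (-0.99, interaction 0.46, unadjusted p = 7.62e-05, edgeR), and *Kcnj2* (-1.11 in scramble cells, interaction 0.38, unadjusted p = 0.0223, edgeR). In both genes the stimulated levels of the lines were close to each other, and the unstimulated level was lower in shSrsf3 cells. *Acta1* (interaction -0.37, unadjusted p = 3.74e-05, edgeR) and *Fos* (-0.55, unadjusted p = 0.00128, edgeR) fell in shSrsf3 cells, with scramble values of 0.05 and -0.04. *Fos* was at 11.95, 10.5 and 11.5 CPM without and 11, 11.3 and 10.8 CPM with ligand in scramble cells, and all 3 unstimulated shSrsf3 samples were above these. Since the 85 genes were chosen by their shSrsf3 values, which enter the interaction, these counts are descriptions.

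**Figure D4:**
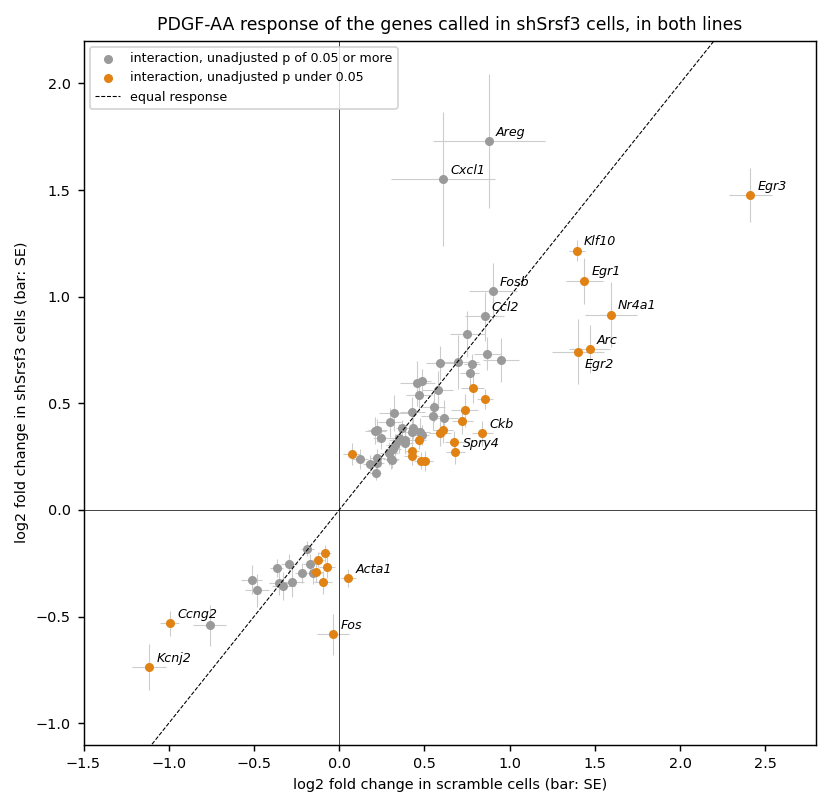
Log2 fold change upon PDGF-AA of the 85 genes called in shSrsf3 cells, in scramble cells (x axis) and in shSrsf3 cells (y axis), with the SE of each (bars). Orange points have an interaction at an unadjusted p under 0.05 and the dashed line marks an equal response. *Egr3*, *Nr4a1* and *Arc* lie below the line, *Areg* and *Cxcl1* above it with wide bars, and *Acta1* is on the right of 0 among the genes that fell.

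Seen from the scramble cells, 288 of the 301 genes that rose there had a positive log2 fold change in shSrsf3 cells, against 48.2% of all genes. Of the 301, 192 were higher at an unadjusted p under 0.05 and 59 were called, with medians of 0.28 in scramble and 0.15 in shSrsf3 cells. Of the 307 that fell, 286 had a negative value in shSrsf3 cells, against 51.8% of all genes. Of the 307, 161 were lower at an unadjusted p under 0.05 and 13 were called (medians -0.33 and -0.16). Among all 15037 tested genes, 1420 had an unadjusted p under 0.05 in shSrsf3 cells, in either direction. By list, that for ERK feedback, *Lif* included, had 9 calls in scramble cells and 3 in shSrsf3 cells. FoxO factors and PI3K-repressed genes had 15 decreases and 4, ligands and cytokines 13 increases and 7, and cholesterol genes 7 and 0. Over all genes, increases were 301 and 64 (2.0% and 0.426%) and decreases 307 and 21 (2.04% and 0.14%), and with each line fitted alone, the 6 samples gave 247 calls in scramble and 201 in shSrsf3 cells. None of these differences between counts was tested. Genes chosen for passing a threshold in one line tend to have larger values there by the choice alone.

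The median gene span was 13280 bp for risen, 12840 bp for fallen and 26440 bp for all tested protein-coding genes with a value, and the median number of exons was 6, 5 and 9. The median length of the 3' UTR was 1726 bases for risen, 2098 bases for fallen and 1348 bases for all genes. The AU-rich heptamer TATTTAT, a form of the element that marks short-lived mRNAs, was present in the 3' UTR of 29 risen genes (47.5%), 10 fallen genes (52.6%) and 32.6% of all genes. These medians and shares were not tested, and a longer 3' UTR holds any heptamer more often.

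The count of 85 depended on single samples and on the fit. Leaving out -PDGF-AA replicate 1 or 2, the deepest samples, left 23 and 26 calls, and leaving out +PDGF-AA replicate 2 left 46, whereas leaving out each of the other 3 samples left 58 to 77. All 85 genes kept their sign in each of these fits. *Acta1*, *Bhlhe40*, *Ccl2*, *Ccl7*, *Ccng2*, *Egr1*, *Egr3*, *Fosb*, *Hes1*, *Hk2*, *Kcnj2*, *Klf10*, *Klf16*, *Lfng*, *Nuak2*, *Plk3*, *Slc30a1*, *Usp36*, *Vasn*, *Vegfa*, *Zc3h12a* and *Zfp36l2*, 22 genes, were called whichever of the 6 samples was left out and also under every other alternative. In contrast, *Areg*, *Cxcl1*, *Egr2*, *Irs2* and *Spry4* were each called in only 1 of the 6 fits that left out a sample, and *Irs1* and *Pik3ip1* in none. With all libraries thinned to the depth of the smallest, 84 genes were called, 71 of them among the 85. Among the 64 risen genes, replicate 3 was the highest unstimulated sample for 44 and the highest stimulated sample for 35.

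**Figure D5:**
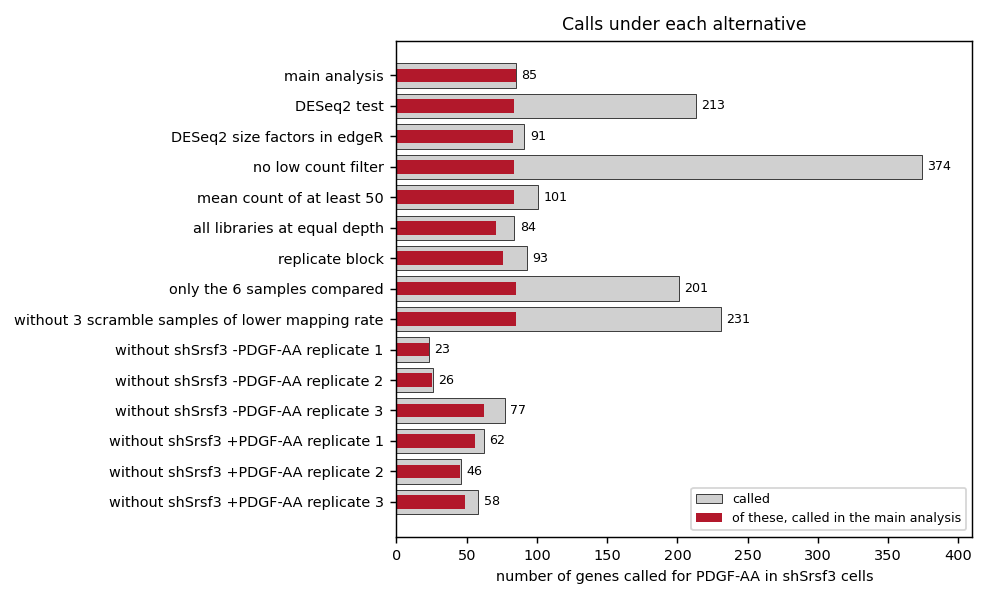
Number of genes called for PDGF-AA in shSrsf3 cells (x axis) in the main analysis and under each alternative (grey bars, with the number beside them), and how many of these are among the 85 (red bars). Without -PDGF-AA replicate 1 or 2 the counts are 23 and 26, and 374 genes were called once lowly expressed genes were kept.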

How the data were processed

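BBDuk was used by the authors to trim reads, and Salmon (v1.4.0) with GENCODE M26 (GRCm39) and tximport to obtain a table of expected counts, in which each deposited value estimates how many fragments came from a gene, not scaled to depth; how tximport scaled them is not given in the sources used here. RNA was isolated from all samples at the same time. Expected counts (16.3% not whole) were rounded, filtered with filterByExpr (edgeR 4.0.16, R 4.3.3, minimum count 10), scaled by TMM and tested with the quasi-likelihood test, with all 12 samples and 1 mean per condition in the model. The threshold was an adjusted p (Benjamini-Hochberg) of 0.05, with no minimum for the fold change. SEs follow from the log2 fold change divided by the root of F. Exact permutation of 3 against 3 samples cannot give a p below 0.1 and was not used. The script was tested on simulated data. Samples with the same replicate number did not deviate together (correlations -0.01, 0.08 and -0.03) and were not treated as pairs. Alternatives included DESeq2 1.42.0.

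Genes named were called genes of 2-fold, the 20 largest called increases and decreases with a mean count of at least 50, called list members, abundant uncalled members of the main lists, genes called for the interaction, *Srsf3*, *Pdgfra* and *Cdkn2a*. Other named genes were chosen after their values were seen. Members, lists and rules were chosen with earlier results of these data known. All 85 called genes matched GENCODE M39, 84 of them protein-coding. Promoters on chromosome 18 were not used here. Of all tested genes 83.3% had promoter and structure values. Of the called genes, 61 of 64 and 19 of 21 had them. A called gene and some uncalled genes are not reported here.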

Additional observations from a re-analysis of the deposited data

Results flagged for a closer look

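The interaction, the PDGF-AA response in shSrsf3 cells minus that in scramble cells, passed the adjusted threshold for 2 genes, and neither was among the genes called for PDGF-AA in shSrsf3 cells. *Ch25h*, cholesterol 25-hydroxylase, had an interaction of -0.87 on the log2 scale (adjusted p = 0.000327, edgeR's quasi-likelihood test). In shSrsf3 cells it was at 21.95, 23.1 and 24.6 CPM without and 22.1, 22.5 and 20.1 CPM with ligand (-0.10), and in scramble cells at 16.9, 17.7 and 16.5 CPM without and 28.7, 28.7 and 29.6 CPM with ligand (0.77). Its promoter holds the CRE TGACGTCA 45 bases before the start.

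*Gm6741*, a processed pseudogene, had a fitted interaction of 8.41 on the log2 scale (adjusted p = 0.0187, edgeR's quasi-likelihood test), a value that depends on the prior count because the gene was at 0 in all 3 stimulated scramble samples. It was at 1.34 CPM in unstimulated scramble cells, at least 27.0-fold above 3 counts per library, and at 1.48 CPM without and 0.924 CPM with ligand in shSrsf3 cells. All of its 31-base sequences (100%) occur in transcripts of other genes, so that its count is uncertain.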

How the results depend on the processing

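The 85 calls in shSrsf3 cells became 213 with DESeq2, 374 without a filter for low counts, 201 with only the 6 compared samples in the fit, 231 without the 3 scramble samples of lower mapping rate, and 23 to 77 when 1 sample was left out. The 6 calls at 2-fold became 65 without the filter and 3 to 7 when 1 sample was left out. The 608 calls in scramble cells became 1289 without the filter, 247 with only the 6 compared samples, and 243 to 1472 when 1 sample was left out, the highest without -PDGF-AA replicate 3. The 2 calls for the interaction became 26 with DESeq2, 218 without the filter, 16 without the 3 scramble samples of lower mapping rate, 1 with a mean count of at least 50, at equal depth and with the replicate block, and 1 to 6 when 1 sample was left out. The cause of these changes was not tested. With the replicate block, 93 genes were called in shSrsf3 cells, 76 of them among the 85, 5 at 2-fold and 625 in scramble cells. None of the 85 genes changed its sign under any of these alternatives. At this depth, 58 genes with a mean count under 50 reached 2-fold at an unadjusted p under 0.05 without a call.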
